A study of Mus musculus with 6 samples.

Results

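The liver and gut miRNAs miR-122-5p (MIMAT0000246), miR-192-5p (MIMAT0000517), miR-194-5p (MIMAT0000224) and miR-215-5p (MIMAT0000904) were followed in white adipose tissue (WAT). They were taken by their mature accessions, 4 of the 707 miRNAs counted. All the mice were male and ApoE-deficient, and so lacked apolipoprotein E, a carrier protein that helps to clear lipoproteins from the blood. In the CIH group (n = 3 libraries), chronic intermittent hypoxia was applied for 8 weeks, with cycles in which oxygen fell from 21% to about 6% within 60 s and then returned to normal. The control group (n = 3 libraries) was not exposed to CIH. No mice with intact ApoE were included, so both groups carry the deficiency. The fat depot and the age of the mice are not given in the sources used here, nor is it stated that each library came from a separate animal, so the p-values measure the spread between these libraries, which may be technical.

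miRNAs are short RNAs that pair with target mRNAs through their seed, bases 2 to 8, and lower the output of those mRNAs. miR-122 is the dominant miRNA of hepatocytes, where it maintains cholesterol and fatty acid metabolism, and it is also found in plasma. miR-192, miR-194 and miR-215 are typical of the epithelium of the gut, the liver and the kidney. They are called the gut set here for short, a name that does not say which tissue the reads came from. miR-192 and miR-215 are p53-responsive relatives with the same seed, and miR-194 is made from the same primary transcripts as each of them.

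The mature sequences show which of these miRNAs could share targets and which could be confused when reads are counted. The RefSeq sequences (GRCm38.p6) of the gut set are given 5′ to 3′ with the seed in capitals.
miR-192-5p: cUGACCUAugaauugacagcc
miR-215-5p: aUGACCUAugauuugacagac
miR-194-5p: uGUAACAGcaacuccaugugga
Of the 1679 mature miRNA names in this table, only miR-192-5p and miR-215-5p carry the seed UGACCUA, and only miR-194-5p carries GUAACAG. miR-192-5p and miR-215-5p were identical at 18 of 21 positions (85.7%). They differed by C1A, A12U and C20A, where the base of miR-192-5p stands first and positions are counted from 1 at the 5′ end. A read shortened at its ends still holds the middle of these 3 positions unless it is cut to a short fragment. A read with errors at these positions cannot be assigned to either miRNA with certainty. How the authors handled such reads is not given in the sources used here, so the split between miR-192-5p and miR-215-5p is uncertain to that extent. No other row of the counts was identical to any of the 4 miRNAs in all 6 libraries.

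The genome holds 2 pairs of hairpins that encode the gut set, shown here with the 5p arm in capitals because the pairs set which miRNAs are transcribed together (RefSeq, GRCm38.p6, plus strand).
Mir194-1: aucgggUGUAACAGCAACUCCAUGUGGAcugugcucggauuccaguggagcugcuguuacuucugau
Mir215: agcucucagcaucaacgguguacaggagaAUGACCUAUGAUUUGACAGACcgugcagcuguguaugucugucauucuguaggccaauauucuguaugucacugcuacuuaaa
Mir194-2: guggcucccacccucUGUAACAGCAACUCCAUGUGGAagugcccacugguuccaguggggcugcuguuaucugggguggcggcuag
Mir192: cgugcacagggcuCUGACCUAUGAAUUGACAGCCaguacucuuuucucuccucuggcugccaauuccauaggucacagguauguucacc
Mir194-1 (185313319 to 185313385) and Mir215 (185313581 to 185313692) lie on chromosome 1, 195 bases apart. In GENCODE M21, Mir215 overlaps an exon and Mir194-1 an intron of the noncoding gene 2010103J01Rik on the same strand, and both lie in an intron of the protein-coding gene Iars2 on the opposite strand. Mir194-2 (6264643 to 6264728) and Mir192 (6264844 to 6264932) lie on chromosome 19, 115 bases apart, and overlap no other annotated gene. The gene before this pair, Atg2a, ends 2307 bases upstream of Mir194-2, and the gene after it, Gm14963, starts 3862 bases downstream of Mir192. The mature miR-194-5p is the same from both hairpins, so its count is a sum over both pairs, whereas miR-215-5p comes from the first pair alone and miR-192-5p from the second alone.

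The libraries held 636963 to 4783768 miRNA counts, and 633 miRNAs with at least 10 counts in all were tested. Levels are given as TMM-normalized CPM, counts scaled to a common library size and corrected for composition, with factors from 0.575 in control 1 to 1.45 in CIH 3. Over all miRNAs tested, control 1 and control 2 stood apart from the other 4 libraries. On the log2 scale they correlated with each other at 0.831 and with control 3 and the CIH libraries at 0.595 to 0.712, while control 3 and the CIH libraries correlated with one another at 0.952 to 0.974. These values are across miRNAs and carry no test. For the gut set, the libraries that stood apart were control 1 and CIH 1.

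The gut set was high in 1 library of each group and much lower and even in the other 4. In those 4, miR-192-5p was still at place 53 to 72 among the miRNAs counted. miR-192-5p had 54113, 6238 and 1067 counts in control 1, 2 and 3, which are 68848, 1505 and 962 TMM-normalized CPM. In CIH 1, 2 and 3 it had 33870, 1164 and 1162 counts, or 27200.5, 1258 and 1260.3 TMM-normalized CPM. Control 1 and CIH 1 were therefore the high libraries, and the groups overlapped. In control 1, miR-192-5p was 55.8-fold above the median of the other controls, and in CIH 1 it was 21.6-fold above the median of the other CIH libraries.

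miR-194-5p, the partner of both miR-192 and miR-215 in their hairpin pairs, followed the same pattern. Its level was 50514, 279 and 241 TMM-normalized CPM in control 1, 2 and 3, from 39703, 1157 and 267 counts. In CIH 1, 2 and 3 it was 5425, 217 and 248, from 6755, 201 and 229 counts. Control 1 and CIH 1 were again high, by 194.4-fold and 23.3-fold over the median of the others in their group, and the groups overlapped.

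miR-215-5p varied the most of the 4. Its level was 91001 TMM-normalized CPM in control 1, 26.8 in control 2 and 12.6 in control 3, from 71525, 111 and 14 counts. In CIH 1, 2 and 3 it was 2265, 29.2 and 15.2, from 2820, 27 and 14 counts. In control 1 it was the 4th most abundant of all miRNAs counted, and in control 3 it was at place 354. Control 1 was 4619-fold and CIH 1 was 102-fold above the median of the others in their group. Without TMM scaling, its 95% interval (exact binomial, counting error only) was 19.1 to 27.9 CPM in control 2, 9.65 to 29.6 in control 3, 24.1 to 53.3 in CIH 2 and 12.0 to 36.9 in CIH 3. These intervals all overlapped, which does not show that the levels were equal, and differences between the low libraries were not tested.

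miR-122-5p, the hepatocyte miRNA, was not high in the same libraries. It had 247, 568 and 11.7 TMM-normalized CPM in control 1, 2 and 3, with 2356 counts in control 2 and 13 in control 3. In CIH 1, 2 and 3 it had 159.8, 589.9 and 892, from 199, 546 and 822 counts. The highest libraries were CIH 3, CIH 2 and control 2, the lowest was control 3, and the groups overlapped. Its 13 counts in control 3 give an interval of 8.73 to 28.0 CPM around 16.4 without TMM scaling, below that of control 1 (123 to 163 CPM) and of CIH 1 (109 to 145 CPM). The intervals of control 1 and CIH 1 overlapped, and the difference between these neighbours in the order of unscaled levels was not tested. The highest level of miR-122-5p was 76.1-fold its lowest, close to the 71.6-fold of miR-192-5p, but below the 233-fold of miR-194-5p and the 7211-fold of miR-215-5p.

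**Figure D1:**
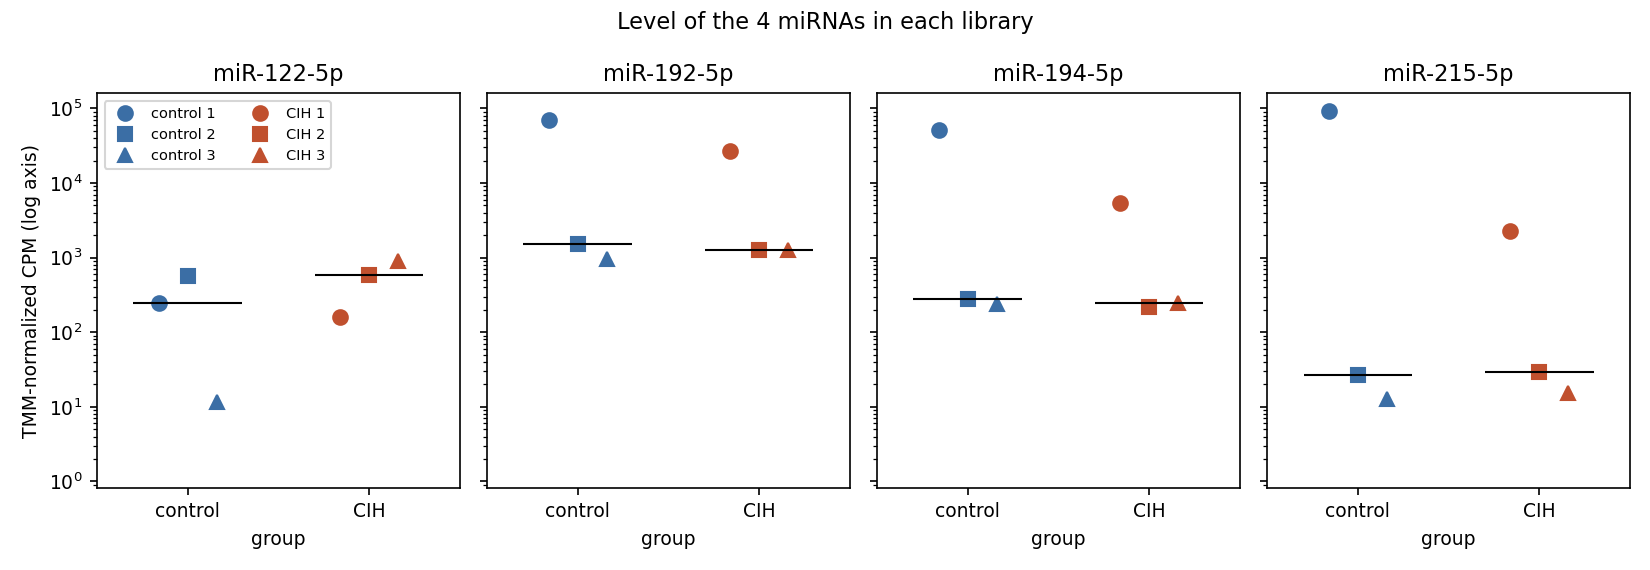
TMM-normalized CPM on a log axis for each of the 4 miRNAs in the 3 control libraries (blue) and the 3 CIH libraries (red), with 1 symbol per library and a line at the group median. Control 1 and CIH 1 (circles) are far above the others for miR-192-5p, miR-194-5p and miR-215-5p, while for miR-122-5p control 3, at 11.7, is the low library.

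In the 4 libraries other than control 1 and CIH 1, the gut set was steady. miR-194-5p ran from 217 to 279 TMM-normalized CPM, a 1.29-fold range, miR-192-5p from 962 to 1505 (1.56-fold) and miR-215-5p from 12.6 to 29.2 (2.31-fold). On the log2 scale, the SD over these 4 libraries was 0.15 for miR-194-5p, 0.27 for miR-192-5p and 0.56 for miR-215-5p, beside a median of 0.88 over all miRNAs tested. For miR-122-5p it was 2.86. With all 6 libraries, the SD of log2 levels was 2.23 for miR-122-5p, 2.69 for miR-192-5p, 3.30 for miR-194-5p and 5.16 for miR-215-5p, all above the median of 1.02 over the 633 miRNAs tested. By this SD, miR-215-5p held place 16, miR-194-5p place 40, miR-192-5p place 53 and miR-122-5p place 77 of the 633. These 4 libraries were set apart after their values were seen, so their ranges are a description and were not tested.

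The gut set took a visible part of 1 library. miR-192-5p, miR-194-5p and miR-215-5p together made up 12.1% of all miRNA counts in control 1 and 2.75% in CIH 1, against 0.157% in control 2, 0.170% in control 3, 0.189% in CIH 2 and 0.221% in CIH 3. miR-122-5p never exceeded 0.129% of a library, its share in CIH 3. A gain of gut set reads lowers the share left for every other miRNA. The TMM factor of control 1, the lowest of the 6, corrects for composition over all miRNAs, and the part due to the gut set was not tested. Library sizes and factors taken without the 4 members gave log2 fold changes, CIH against control, of -1.29 for miR-192-5p and -3.15 for miR-194-5p. With the members, these were -1.26 and -3.11. In bulk tissue, more cells of a type that carries these miRNAs and more of the miRNAs per cell cannot be told apart.

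The makeup of that sum also differed between the 2 high libraries. In control 1, miR-215-5p was 43.3% of the 3 miRNAs (95% exact binomial interval 43.0 to 43.5), miR-192-5p was 32.7% and miR-194-5p 24.0%. In CIH 1, miR-215-5p was only 6.49% (6.26 to 6.73), miR-192-5p was 78.0% and miR-194-5p 15.5%. In the other libraries miR-215-5p was 1.48% in control 2, 1.04% in control 3, 1.94% in CIH 2 and 0.996% in CIH 3, while miR-192-5p took 79.2% to 83.6%. CIH 1 was thus near the low libraries in the shares of miR-192-5p and miR-194-5p and above them in that of miR-215-5p, and control 1 was apart in all 3 shares. The intervals cover counting error within a library only, and no spread between libraries. They treat reads as independent molecules, and whether molecular identifiers were used is not given in the sources used here.

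**Figure D2:**
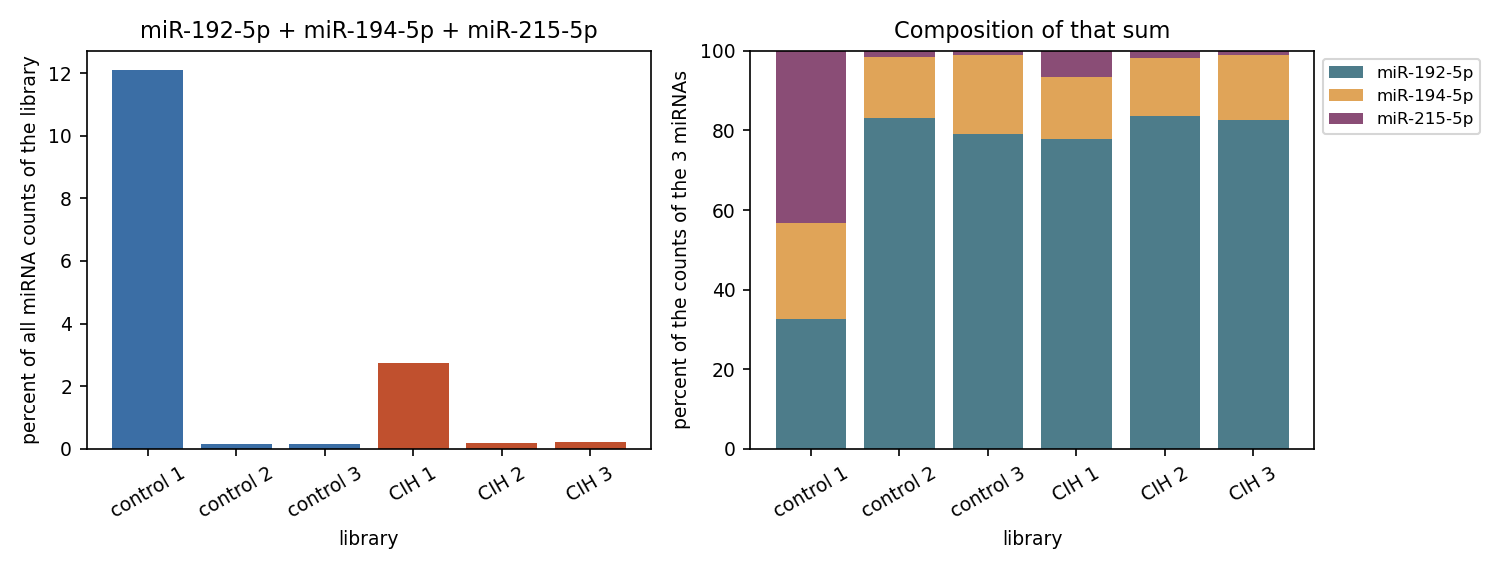
Left, the summed counts of miR-192-5p, miR-194-5p and miR-215-5p as a percent of all miRNA counts in each library, with control libraries in blue and CIH libraries in red. Right, the percent of that sum taken by each of the 3 miRNAs, where miR-215-5p reaches 43.3% in control 1 and 6.49% in CIH 1 and stays at or under 1.94% elsewhere.

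Ratios between miRNAs within a library do not depend on how libraries are scaled, and were used to ask whether the members kept their proportions. The count of miR-192-5p was 1.36, 5.39 and 3.996 times that of miR-194-5p in control 1, 2 and 3, and 5.01, 5.79 and 5.07 times in CIH 1, 2 and 3. Only control 1 was far from the others. On the log2 scale the ratio averaged 1.62 ± 1.04 (SD, n = 3) over the controls and 2.40 ± 0.11 (SD, n = 3) under CIH, a difference of 0.77 (two-sided exact permutation test, p = 0.3, adjusted 0.75 over the 3 ratios tested). The smallest p-value that 3 libraries against 3 allow in this test is 0.1. The difference was 0.19 without control 1 and 1.18 without control 2.

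The ratio of miR-215-5p to miR-192-5p, the pair with a shared seed, ran over a 106-fold range. It was 1.32, 0.0178 and 0.0131 across the controls and 0.0833, 0.0232 and 0.0120 in CIH 1, 2 and 3. Control 1 was the sole library with more miR-215-5p than miR-192-5p, and CIH 1 was the next highest. The log2 ratio was -3.87 ± 3.70 (SD, n = 3) over the controls and -5.11 ± 1.39 (SD, n = 3) under CIH, with a difference of -1.24 (same exact permutation test, p = 0.8, adjusted 0.8). Without control 1 the difference was 0.90, in the opposite direction. It was -2.21 without control 2, -2.40 without control 3, -1.996 without CIH 1 and -0.63 without CIH 3.

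The ratio of miR-122-5p to miR-192-5p ran over a 197-fold range. It was 0.00359, 0.378 and 0.0122 across the controls and 0.00588, 0.469 and 0.707 in CIH 1, 2 and 3. Low values came both from the high miR-192-5p of control 1 and CIH 1 and from the low miR-122-5p of control 3. The log2 ratio was -5.28 ± 3.47 (SD, n = 3) over the controls and -2.999 ± 3.83 (SD, n = 3) under CIH, a difference of 2.28 (same exact permutation test, p = 0.5, adjusted 0.75). The difference was 0.86 without control 1, 1.32 without CIH 2 and 1.03 without CIH 3. Leaving out control 2 gave 4.21, and leaving out CIH 1 gave 4.48.

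Since miR-194-5p is made from both hairpin pairs, its count was also set against the sum of miR-192-5p and miR-215-5p, a ratio chosen after the values were seen and therefore not tested. It was 0.316, 0.182 and 0.247 across the controls and 0.184, 0.169 and 0.195 in CIH 1, 2 and 3. This ratio ranged over 1.87-fold, whereas the ratio of miR-192-5p to miR-194-5p ranged over 4.24-fold. Control 1, where miR-215-5p was highest, was still the highest library.

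**Figure D3:**
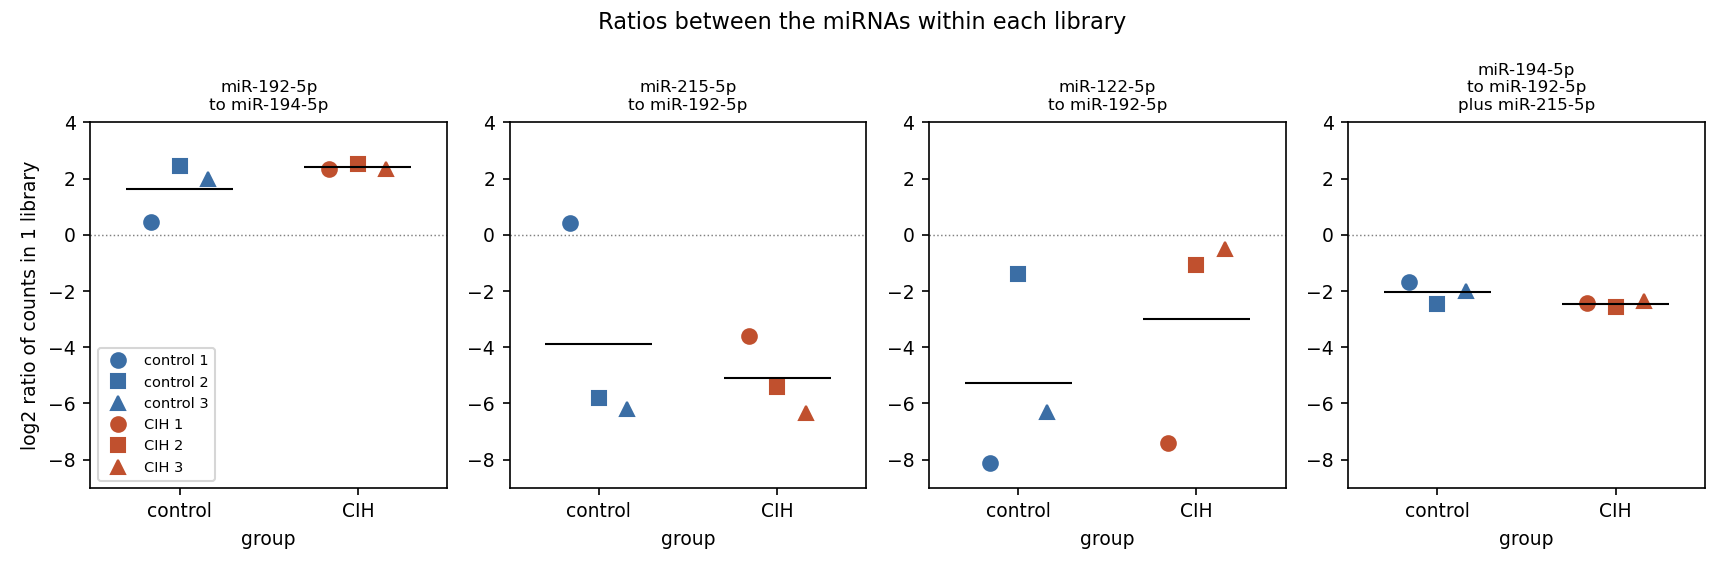
The log2 ratio of counts within each library for 4 pairs or sums of the miRNAs, with control libraries in blue, CIH libraries in red and a line at the group mean. The ratio of miR-194-5p to the sum of its partners is the steadiest, with a 1.87-fold range, and the ratio of miR-215-5p to miR-192-5p puts control 1 above all other libraries.

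None of the 4 miRNAs was called between the CIH and control groups. By edgeR's quasi-likelihood test, 0 of the 4 had a Benjamini-Hochberg adjusted p-value under 0.05, where 0% of the 633 miRNAs tested did. Taking instead every change of 1.5-fold or more whose unadjusted p-value was under 0.05, 0 of the 4 were called, against 16 of 633 (2.53%). The 3 CIH libraries did not overlap the 3 controls for 0 of the 4, against 51 of 633 (8.06%). With so few members, these shares do not set the 4 apart from the table.

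For the liver miRNA, the estimate was higher in the CIH group, and for the gut set it was lower, but all intervals included no change. miR-122-5p had a mean of 276 ± 279 TMM-normalized CPM over the controls and 547 ± 368 under CIH (SD, n = 3 each). Its log2 fold change was 0.99 (standard error 1.27, 95% interval -2.06 to 4.03, adjusted p = 0.882 by edgeR's quasi-likelihood test). miR-192-5p had a log2 fold change of -1.26 (standard error 1.95, interval -5.93 to 3.41, adjusted p = 0.889 by the same edgeR test). miR-194-5p had -3.11 (standard error 2.36, interval -8.76 to 2.53, adjusted p = 0.882). miR-215-5p had the furthest estimate, -5.30 (standard error 3.53, interval -13.7 to 3.13, adjusted p = 0.882). Over the whole table, the median log2 fold change was 0.07.

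The direction for the gut set turned with a single library. Control 1 held 96.5% of the summed control level of miR-192-5p, 99.0% for miR-194-5p and 99.96% for miR-215-5p, and CIH 1 held 91.5%, 92.1% and 98.1% of the CIH sums. Without control 1, the log2 fold changes were 3.01 for miR-192-5p, 2.93 for miR-194-5p and 5.26 for miR-215-5p. Without CIH 1, they were -4.19, -6.14 and -10.4. Without both, which was tried after the data were seen, they were 0.05, -0.13 and 0.17, with an adjusted p-value of 0.980 to 0.994 by edgeR's quasi-likelihood test. The group medians were 1505 and 1260.3 TMM-normalized CPM for miR-192-5p, 279 and 248 for miR-194-5p, and 26.8 and 29.2 for miR-215-5p, control first.

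miR-122-5p was higher in the CIH group in every fit, by 0.15 to 2.19 on the log2 scale, and its adjusted p-value lay between 0.660 and 0.980. The largest value came without control 2, the highest control library, and leaving out control 3, the lowest, gave 0.40. In that fit without control 3, 118 of 614 miRNAs (19.2%) had an adjusted p-value under 0.05 by edgeR's quasi-likelihood test, and 0 of the 4 members did, also at an unadjusted p-value under 0.05. The biological coefficient of variation, the spread between libraries beyond counting error, was 1.12 for miR-122-5p, 1.504 for miR-192-5p, 1.64 for miR-194-5p and 2.06 for miR-215-5p, beside a common value of 1.05.

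**Figure D4:**
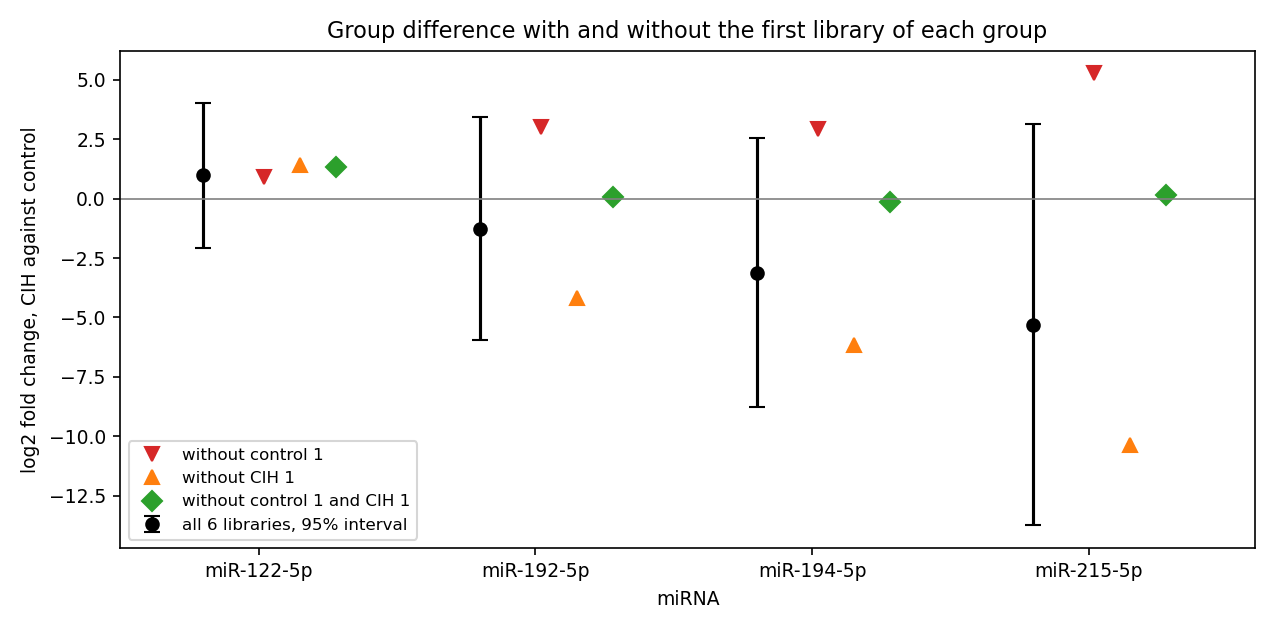
The log2 fold change of each miRNA, CIH against control, from all 6 libraries with its 95% interval (black) and from the fits without control 1 (red), without CIH 1 (orange) and without both (green). For the gut set the sign turns without control 1 and the values lie between -0.13 and 0.17 without both, while miR-122-5p stays above 0.

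The patterns of levels over the 6 libraries were closest between miR-192-5p and miR-194-5p. As a measure of likeness, each miRNA was centred on its mean log2 level, and the root mean square difference between 2 miRNAs over the 6 libraries was taken. Among 408 candidates with at least 10 counts in at least 3 libraries, miR-194-5p was the nearest to miR-192-5p and miR-192-5p the nearest to miR-194-5p, with a difference of 0.72 on the log2 scale. For miR-215-5p, the nearest was miR-194-5p (1.74), with miR-192-5p at place 3 (2.34). In the other direction, miR-215-5p was at place 8 for miR-194-5p and only at place 101 for miR-192-5p. The measure is not rescaled, so a larger swing in the same direction counts as a difference. In control 1, miR-215-5p lay 8.94 above its mean log2 level and miR-192-5p 4.09 above its own. In CIH 1 these values were 3.61 and 2.75. miR-122-5p and miR-192-5p were 3.18 apart, which put miR-122-5p at place 284 for miR-192-5p and miR-192-5p at place 345 for miR-122-5p.

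Other miRNAs are listed by accession alone, without names. The accession MIMAT0004545 was at place 2 for miR-192-5p (1.07), miR-194-5p (0.80) and miR-215-5p (2.25). It had 1017, 20 and 12 counts across the controls and 63, 8 and 7 in CIH 1, 2 and 3, so control 1 and then CIH 1 were also its high libraries. The nearest to miR-122-5p were MIMAT0003130 and MIMAT0014943, both at 0.95. MIMAT0003130 had 528, 3802 and 150 counts across the controls and 272, 1325 and 2119 in CIH 1, 2 and 3, which made CIH 3 its highest and control 3 its lowest library in TMM-normalized CPM (2298 and 135). MIMAT0014943 differed from it by few counts in every library, for example 535 in control 1 and 2125 in CIH 3, and how reads that match both were counted is not given in the sources used here. Markers of other tissues were not analysed here.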

How the data were processed

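Small RNA from WAT was sequenced by the authors on an Illumina instrument in 3 control and 3 CIH libraries. The deposited values are raw counts of reads on each of 707 mature miRNAs, without normalization. Trimming, aligner, miRNA database release and the treatment of ambiguous reads are not given in the sources used here, and could move reads between similar miRNAs. Groups and replicate numbers were taken from the labels.

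In R 4.3.3, edgeR 4.0.16 was fitted to the 633 miRNAs that reached 10 counts in sum, with TMM factors and no term but the group, followed by its quasi-likelihood test and Benjamini-Hochberg adjustment. Standard errors are the fold change over the root of the F statistic. Log2 levels used a prior count of 2, and log2 ratios 0.5 added to each count. Intervals of shares are exact (Clopper-Pearson). The testing was tried on simulated data. Alternatives were DESeq2 1.42.0, limma 3.58.1 with voom, other scaling factors and filters, the replicate number as a block, and each library left out. Chi-square tests found every pair of libraries within a group to differ, and each library was taken as 1 replicate.

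The 4 members and the lists were chosen with earlier results of these data known. The naming rule took the 4 members and, for each, the 3 most alike miRNAs. The sources used here pair no other accession with a name, so lists of tissue-typical miRNAs and other arms of the same hairpins were not run, and only some of the most alike are given, by accession. Sequences came from RefSeq for 3 of the 4 members, positions from GRCm38 with GENCODE M21, and the build used by the authors is not given in the sources used here. Figures were drawn with matplotlib 3.10.9.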

Additional observations from a re-analysis of the deposited data

How the results depend on the processing

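In the 18 alternatives, 0 of the 4 members passed an adjusted p-value of 0.05, and 0 an unadjusted one, wherever a p-value was given. The DESeq2 fit gave one for miR-122-5p only. Of all miRNAs tested, 0 had an adjusted p-value under 0.05 in 17 of the 18 alternatives, where 1 to 75 had an unadjusted one, and 118 did without control 3. The direction was kept in 18 of 18 alternatives for miR-122-5p, 17 of 18 for miR-194-5p, and 16 of 18 for miR-192-5p and miR-215-5p. Without control 1 it reversed for miR-192-5p (3.01), miR-194-5p (2.93) and miR-215-5p (5.26), and without both first libraries, an alternative added after the data were seen, for miR-192-5p (0.051) and miR-215-5p (0.17). Over the fits that leave out each library, the log2 fold change ran from -4.19 to 3.01 for miR-192-5p, from -6.14 to 2.93 for miR-194-5p and from -10.4 to 5.26 for miR-215-5p. The log2 ratio of miR-215-5p to miR-192-5p ran from -2.40 to 0.90, with the reversal to 0.90 without control 1. These turns follow from leaving out the library with 96.5% or more of the control level. Library totals in place of TMM gave log2 fold changes of 1.73 for miR-122-5p and -0.77 for miR-192-5p, with a median of 0.33 over all miRNAs, and upper-quartile factors gave 0.15 and -2.01, with a median of -0.52. limma voom, which fits log2 levels, gave -1.17 for miR-194-5p and -1.28 for miR-215-5p. DESeq2 gave an adjusted p-value of 0.946 for miR-122-5p. It also fitted miR-192-5p, miR-194-5p and miR-215-5p but returned no p-value for them. That fit therefore neither calls these 3 miRNAs nor counts as a test that they did not pass. The DESeq2 log2 fold change of miR-215-5p was -5.48 (standard error 2.54).

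Replicate numbers 1 to 3 occur in both groups. Across miRNAs, the deviations from the group mean correlated at 0.353 between the libraries numbered 1, the highest of these values. The correlation was -0.116 between those numbered 2 and 0.0195 between those numbered 3. Whether libraries with the same number share anything more is not given in the sources used here and was not tested. For the gut set, both libraries numbered 1 were the high ones. With the replicate block, the log2 fold changes were 1.20 for miR-122-5p, -0.40 for miR-192-5p, -1.10 for miR-194-5p and -1.24 for miR-215-5p, and 0 of the 4 were called. Counts of 13 to 27 limit miR-215-5p in control 3, CIH 2 and CIH 3 and miR-122-5p in control 3.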
